A study of Drosophila melanogaster with 8 samples.

Results

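Of the 3474 Dpn peaks called in neuroblasts (NBs) of the medulla, 1056 overlapped no Dpn peak called in NBs of the whole brain. These 1056 peaks, 30.4% of the medulla NB list, are called medulla-only here and are the subject of this report. They were chosen by position alone on arms 2L, 2R, 3L, 3R, 4 and X: not a base of the peak lay in a peak of the pan-NB list, which holds 4282 peaks on the same arms. The other 2418 medulla NB peaks shared at least 1 bp with that list and are called shared. The rule used the positions of the peaks in both lists, so that the share of 30.4% and the distances to pan-NB peaks are descriptions and not findings.

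Binding was profiled by DamID in brains of Drosophila melanogaster larvae, in 4 conditions with 2 replicates each and 8 samples in all. The medulla profile came from NanoDam in brains carrying Dpn-GFP, a tagged genomic copy of dpn on a BAC, against NanoDam in w1118 brains without a tagged protein. Both carried tub-GAL80ts and TaDaM-traNLS-vhhGFP under eyR16F10-GAL4, which the labels call ey-GAL4, with 40 brains per replicate. The pan-NB profile came from a Dam-Dpn fusion against Dam alone, both under wor-GAL4 with tub-GAL80ts, with 30 brains per replicate. In all 4 conditions GAL80ts held expression off at 18°C and released it at 29°C. Per the study, eyR16F10-GAL4 is active both in neurons and in NBs of the medulla, with few of the superficial NBs seen to express it in larvae, so that the cells profiled were not NBs alone. The Dpn-GFP brains held a further copy of the dpn region that the w1118 brains did not. The lists hold no expression values, and the labelled cells could not be checked against marker levels.

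Deadpan (Dpn) is a basic helix-loop-helix repressor of the Hes family, made in most NBs and downstream of Notch signalling in several NB lineages. Medulla NBs arise from the neuroepithelium of the optic lobe and express a series of temporal transcription factors as they age, through which they make different neurons in turn. In DamID, Dam methylates adenine in GATC sites near the protein it is fused to or brought to. In NanoDam, Dam is joined to a nanobody that binds GFP and so gathers where the tagged protein is, whereas the Dam fusion is Dpn made in addition to the cells' own. Technique and cell population thus differed together between the lists and cannot be told apart. Each list is deposited as that of the averaged replicates, which leaves no replicate error and no test of any difference given below. A medulla-only peak is a place where no pan-NB peak passed the threshold, not one shown to lack binding there. The lists hold no counts, so that the depth reached in each sample is unknown, although the study's methods give a target for it.

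Medulla-only peaks covered 1804367 bp, against 3862361 bp for the shared peaks. Their median width was 1487.5 bp (range 185 to 10453), against 1396 bp for shared peaks and 1284.5 bp for the 1924 pan-NB peaks that overlapped no medulla NB peak. Most of them sat low in their own list. The score of the peak caller had a median of 2.81 (quartiles 1.89 and 4.03) in medulla-only peaks, against 4.785 in shared ones, and spanned 0.76 to 11.87 against 0.9 to 15.28. The caller's false discovery rate was below 0.001 for 526 medulla-only peaks (49.8%), against 1918 shared peaks (79.3%).

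With the medulla NB list divided by score into 10 bins of like size, the medulla-only share from the lowest to the highest bin was 63.2%, 45.5%, 45.7%, 36.9%, 36.3%, 25.3%, 21.3%, 11.5%, 13.8% and 4.32%. It was thus above the 30.4% of the whole list in the lower 5 bins and below it in the upper 5. Among the 100 highest-ranked peaks, 4 were medulla-only, and 6 were so among the 200 highest. Width divided the list much less, with medulla-only shares of 27.4%, 30.3%, 32.2% and 31.7% from the narrowest to the widest of 4 bins.

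**Figure D1:**
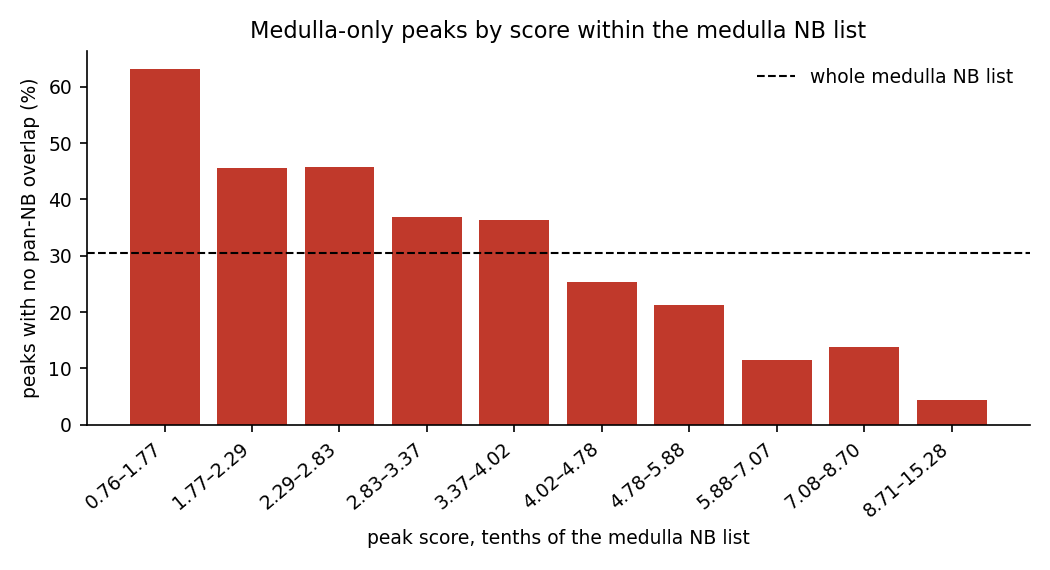
Share of medulla NB peaks with no pan-NB overlap (y axis, percent) in 10 bins of the peak score (x axis, score range of each bin). The bars stand at 63.2% in the lowest bin and 4.32% in the highest, and the dashed line marks 30.4% for the whole list.

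The medulla-only peaks were spread over all arms, with 154 of 527 medulla NB peaks on 2L (29.2%), 194 of 619 on 2R (31.3%), 218 of 726 on 3L, 242 of 794 on 3R (30.5%) and 224 of 749 on X (29.9%). On the small chromosome 4 they were 24 of 59 peaks (40.7%). The nearest pan-NB peak lay a median of 5216 bp away (quartiles 1571 and 14235, range 4 to 267627). It was under 500 bp away for 104 medulla-only peaks (9.85%), under 1 kb for 186 (17.6%) and under 5 kb for 522 (49.4%), and at least 50 kb away for 62. The peaks under 1 kb from a pan-NB peak had a median score of 3.585, against 2.935 at 1 to 5 kb, 2.555 at 5 to 20 kb and 2.665 at 20 kb or more. Their median width was 1191 bp, against 1493.5, 1542.5 and 1649 bp in the same order of distance. Of the peaks under 1 kb away, 69.4% had a false discovery rate below 0.001, against 53.9%, 44.6% and 33.3%. The rule used this distance, and a wide peak close to a pan-NB peak is more apt to overlap it and so be left out. The widths by distance are thus not independent of the rule, and these values are descriptions.

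**Figure D2:**
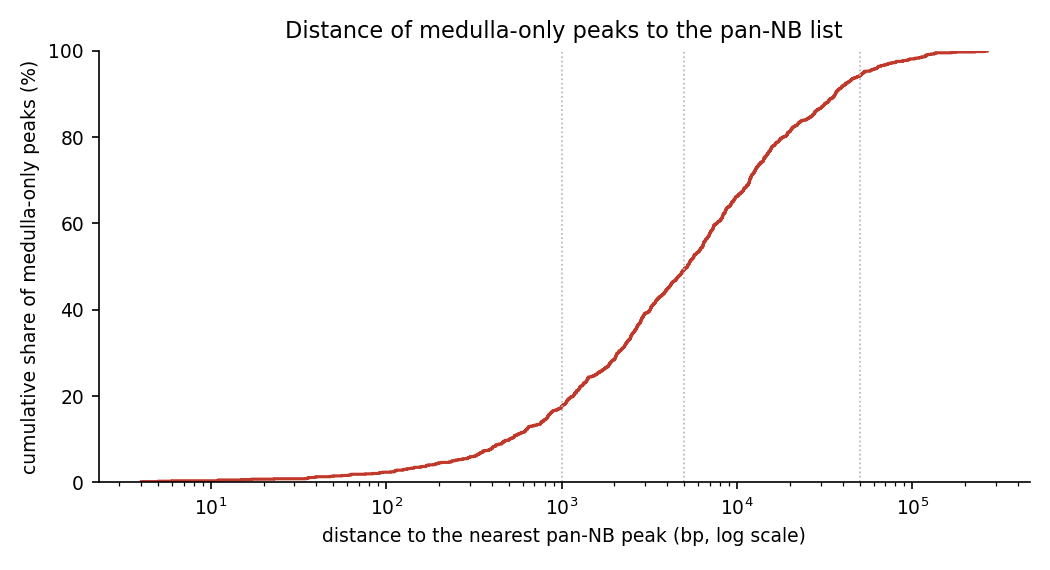
Cumulative share of the 1056 medulla-only peaks (y axis, percent) by distance to the nearest pan-NB peak (x axis, bp, log scale). Dotted lines mark 1, 5 and 50 kb, with 17.6% of the peaks under 1 kb and 49.4% under 5 kb.

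At the edge of the rule, the 5 medulla-only peaks closest to a pan-NB peak missed it by 4, 4, 5, 6 and 11 bp. They lay at CG13321 (2R:12954615-12955816, score 6.39), lncRNA:CR44539 (3L:10245870-10250769, score 3.25), Sam-S (2L:107863-110289, score 2.85), wdp (2R:22302896-22303293, score 7.32) and CG18586 (3L:5875156-5876820, score 5.12). A peak near scramb1 (3L:10230312-10231437, score 4.97) also missed by 11 bp. Just inside the shared class, 71 peaks overlapped a pan-NB peak by exactly 1 bp, among them peaks at smal (2L:6182617-6183569, score 5.66) and Gart (2L:7023544-7023860, score 7.22). Most shared peaks were far from that edge, with a median of 97.3% of their length covered and 1146 of them covered wholly.

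The midpoint of 767 medulla-only peaks (72.6%) lay inside a gene, against 68.7% of shared peaks and 65.5% of pan-NB peaks without a medulla overlap. A gene lay within 1 kb of 927 medulla-only peaks (87.8%), against 84.9% and 81.2%, and a protein-coding gene within 1 kb of 889 (84.2%), against 78.9% of shared peaks. These peaks touched 1537 of 17684 annotated genes within 1 kb (8.69% of all genes), and 1333 of 13922 protein-coding genes (9.57%). Of the 1537 genes, 524 also had a pan-NB peak within 1 kb and 1013 had none (5.73% of all genes), with 855 protein-coding genes among those without (6.14%). Over all genes, 26.3% had a pan-NB peak within 1 kb. At least 1 gene with a pan-NB peak lay within 1 kb of 531 of the 927 medulla-only peaks (57.3%), and none did for 396 (42.7%). Of the 927, 315 had 2 genes within 1 kb and 201 had 3 or more, any of which could count. A shared medulla NB peak stood beside the medulla-only one at 384 of the 1537 genes.

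Gene length differed between these kinds of gene. Protein-coding genes with a medulla-only and a pan-NB peak had a median length of 11427 bp, those with a medulla-only and no pan-NB peak 2605 bp, and all protein-coding genes 2163 bp. From the shortest to the longest of 4 bins of protein-coding genes, a medulla-only peak lay within 1 kb of 4.74%, 7.53%, 10.5% and 15.5%. For medulla-only without pan-NB peaks the shares were 4.05%, 5.98%, 7.96% and 6.58%. Among other gene classes, a medulla-only peak lay within 1 kb of 102 of 1959 lncRNA genes (5.21%), 28 of 503 antisense RNA genes (5.57%), 11 of 260 miRNA genes (4.23%), 12 of 290 tRNA genes (4.14%) and 36 of 269 snoRNA genes (13.4%).

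The highest-scoring medulla-only peak (3R:9703981-9705293, score 11.87) ranked 37 of the medulla NB list. It lay at Unc-115a, which codes for an actin-binding protein with a role in axon guidance, and at trbd, which codes for a deubiquitinase. The nearest pan-NB peak was 41627 bp away, and neither gene had another medulla NB peak within 1 kb. The next (3R:30806624-30807411, score 11.44, rank 55) lay at wts, the kinase that restrains Yorkie in the Hippo pathway, and at dj-1beta, a homologue of the human Parkinson's disease gene DJ-1. A pan-NB peak lay 2358 bp from it, within 1 kb of wts but not of dj-1beta, under a shared medulla NB peak of score 3.79. Its false discovery rate was 0.00543, near the threshold of 0.01, although its score was the second of the medulla-only peaks.

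Dscam2 held a pair of the 20 highest-scoring medulla-only peaks. Dscam2 is a homophilic adhesion protein of the immunoglobulin superfamily that keeps the processes of like neurons apart. The peaks (3L:7163917-7164901 and 3L:7174456-7175568) scored 11.02 and 8.53, at ranks 70 and 381. Further along the gene stood shared peaks of score 8.51 and 11.27, both under a single pan-NB peak of 2115 bp (3L:7183778-7185892). Dscam2 was thus in both lists, with the first medulla-only peak 13217 bp and the second 8209 bp from the nearest pan-NB peak. At its paralogue Dscam3, a medulla-only peak (3R:17500162-17501911, score 5.92) had the nearest pan-NB peak 37646 bp away and no other peak of either list within 1 kb of the gene. Dscam4 likewise had medulla-only peaks and no pan-NB peak. Dscam1, in contrast, had no medulla-only peak, with 2 shared and 4 pan-NB peaks.

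At insb, which codes for a nuclear antagonist of Notch signalling, medulla-only peaks stood on both sides of a pan-NB peak. The peaks at 2R:17474368-17475384 (score 9.29, also within 1 kb of qkr54B, an RNA-binding protein gene) and 2R:17477017-17478260 (score 8.45, also at veil) were 565 and 193 bp from it. That pan-NB peak (2R:17475950-17476823) had a score of 7.78 in its own list, and no medulla NB peak overlapped it. Both lists therefore placed Dpn at insb while no peak was counted as shared.

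At neur, the E3 ligase gene that makes Notch ligands active, the medulla-only peaks (3R:9026977-9027463, score 7.60, and 3R:9027531-9029151, score 6.30) followed one another on the same side of a pan-NB peak of 217 bp, at 84 and 638 bp from it, and 5 further medulla NB peaks at neur were shared. At Imp, whose RNA-binding product declines as NBs age, the medulla-only peak (X:10823310-10824881, score 7.88) was 532 bp from a pan-NB peak and next to a shared peak of score 7.38. At Syp, the RNA-binding protein gene whose product becomes more abundant as Imp declines, the medulla-only peak (3R:20758807-20759834, score 9.23) was 145 bp from a pan-NB peak, and 5 shared peaks stood elsewhere at the gene.

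The mid-series temporal factor gene erm, which codes for a zinc finger protein, had a medulla-only peak at rank 281 (2L:1958135-1959237, score 9.02). Its second one (2L:1951476-1952073) scored only 1.33. Around them stood 5 shared peaks with scores between 3.83 and 9.96, and 5 pan-NB peaks. At Raf, the MAP kinase kinase kinase gene of the receptor tyrosine kinase pathway, the medulla-only peak (X:2298154-2300366, score 9.36) stood beside 4 shared peaks. In contrast, at cry, which codes for the blue-light receptor of the circadian clock, the medulla-only peak (3R:19211453-19212432, score 9.12) was the only peak of either list, and the nearest pan-NB peak was 35734 bp away. The same was true of CG10195 (2L:19480605-19483303, score 8.87), with a distance of 19341 bp. The false discovery rate of the peak at CG10195 was 0.00507, near the threshold of 0.01. At r-l, which codes for an enzyme of pyrimidine synthesis, and dmrt93B, of the Doublesex and Mab-3 related family, adjacent medulla-only peaks scored 9.16 and 6.63.

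The other highest-scoring medulla-only peaks were mixed in the same way. At lovit, the gene of a vesicular transporter of photoreceptors, a peak of score 9.85 (3L:25419437-25419957) lay 39589 bp from the nearest pan-NB peak, and a second one scored 1.11. At CG14459 (score 10.66) and at PRAS40 (score 8.52), which codes for a substrate of TOR complex 1, the medulla-only peak had 3 shared peaks beside it at the gene and pan-NB peaks 2448 and 1406 bp away. Genes with no pan-NB peak and a medulla-only peak of high score also included lncRNA:CR46215 (8.20), CG4467 (8.07), CG15475 and the miRNA gene mir-133 (7.90 at the same peak), CG30419 (7.75), and Dup99B and Obp99d (7.68). Dup99B and Obp99d, the genes of a seminal peptide and of an odorant-binding protein, shared a peak of 711 bp.

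**Figure D3:**
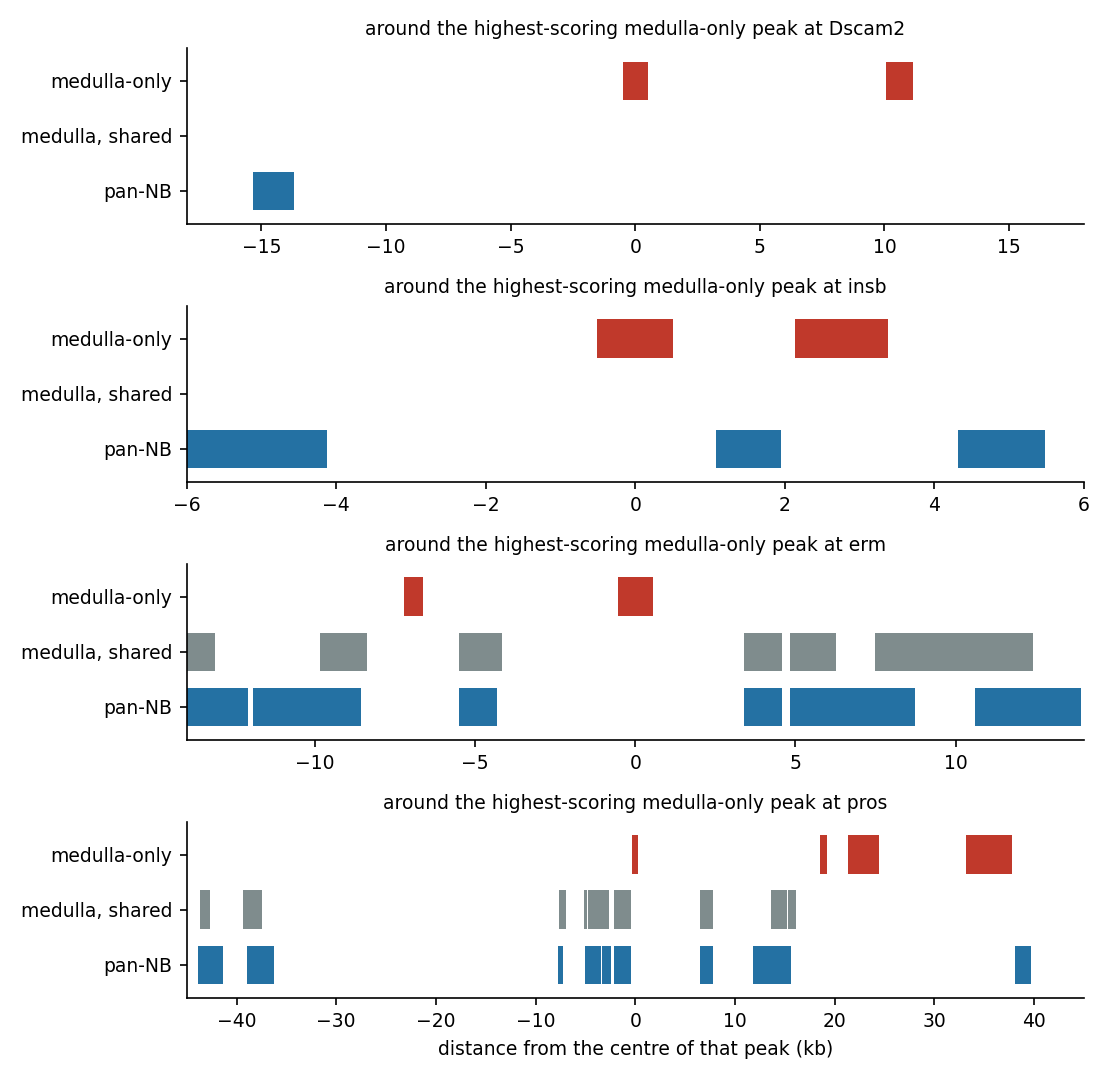
Peaks around the highest-scoring medulla-only peak at Dscam2, insb, erm and pros (x axis, kb from the centre of that peak). Red bars are medulla-only peaks, grey bars shared medulla NB peaks and blue bars pan-NB peaks. At insb the pan-NB peak lies between medulla-only peaks, and at pros 4 medulla-only peaks lie among and beyond the shared ones.

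Of the 1537 genes, 1391 had a single medulla-only peak, 118 had 2 and 28 had 3 or more. The most were 8, at lncRNA:CR32773 and at lncRNA:CR44357. Both are long X-linked transcripts that share peaks with a protein-coding gene: 4 of the 8 at lncRNA:CR32773 were those of bi, and 6 of the 8 at lncRNA:CR44357 were those of CG1677. The gene bi, also known as optomotor-blind, codes for a T-box factor of the developing optic lobe. Its 4 medulla-only peaks scored between 1.28 and 3.60 and stood with 7 shared ones.

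The splicing factor gene mbl had 5 medulla-only peaks, with 3 shared and 4 pan-NB peaks. Their scores were 6.70, 3.91, 1.68, 3.06 and 1.70 in order along the arm, and the nearest pan-NB peak lay between 106 and 19394 bp away. At sick, a large gene linked to actin dynamics, 5 medulla-only peaks scored between 1.49 and 4.33. At kirre, an immunoglobulin adhesion protein gene, 4 medulla-only peaks included one of the widest (X:2759536-2766275, 6740 bp, score 2.63). Most of the medulla-only peaks at these genes were in the lower-scoring part of the medulla NB list.

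The gene pros codes for the homeodomain protein Prospero, which drives the daughters of NBs out of the stem cell state. Its 4 medulla-only peaks scored 5.99, 5.33, 4.30 and 2.47 and lay 144, 2830, 5691 and 301 bp from a pan-NB peak. The 7 shared peaks at pros scored up to 12.89 (rank 16 of the list), so that every medulla-only peak there was below the highest shared ones. At sli, the gene of the secreted guidance ligand Slit, 3 medulla-only peaks scored 5.98, 6.72 and 4.35 beside 4 shared ones. At mamo, a zinc finger gene of mushroom body neuron fate, 3 medulla-only peaks scored 1.70, 5.33 and 4.85.

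At 6 genes, 3 medulla-only peaks were found with no pan-NB peak within 1 kb: stet, CG43693, CG4467, CG32815, TRAM and CG8119. The gene stet codes for a rhomboid protease of EGF receptor signalling, and its peaks scored 2.49, 4.39 and 3.42. At CG4467 the scores were 1.24, 8.07 and 6.53, the highest of the 6 genes. CG32815 and TRAM shared the same 3 peaks, and at CG8119 all 3 peaks also lay within 1 kb of asRNA:CR43299, which had a shared peak too.

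**Figure D4:**
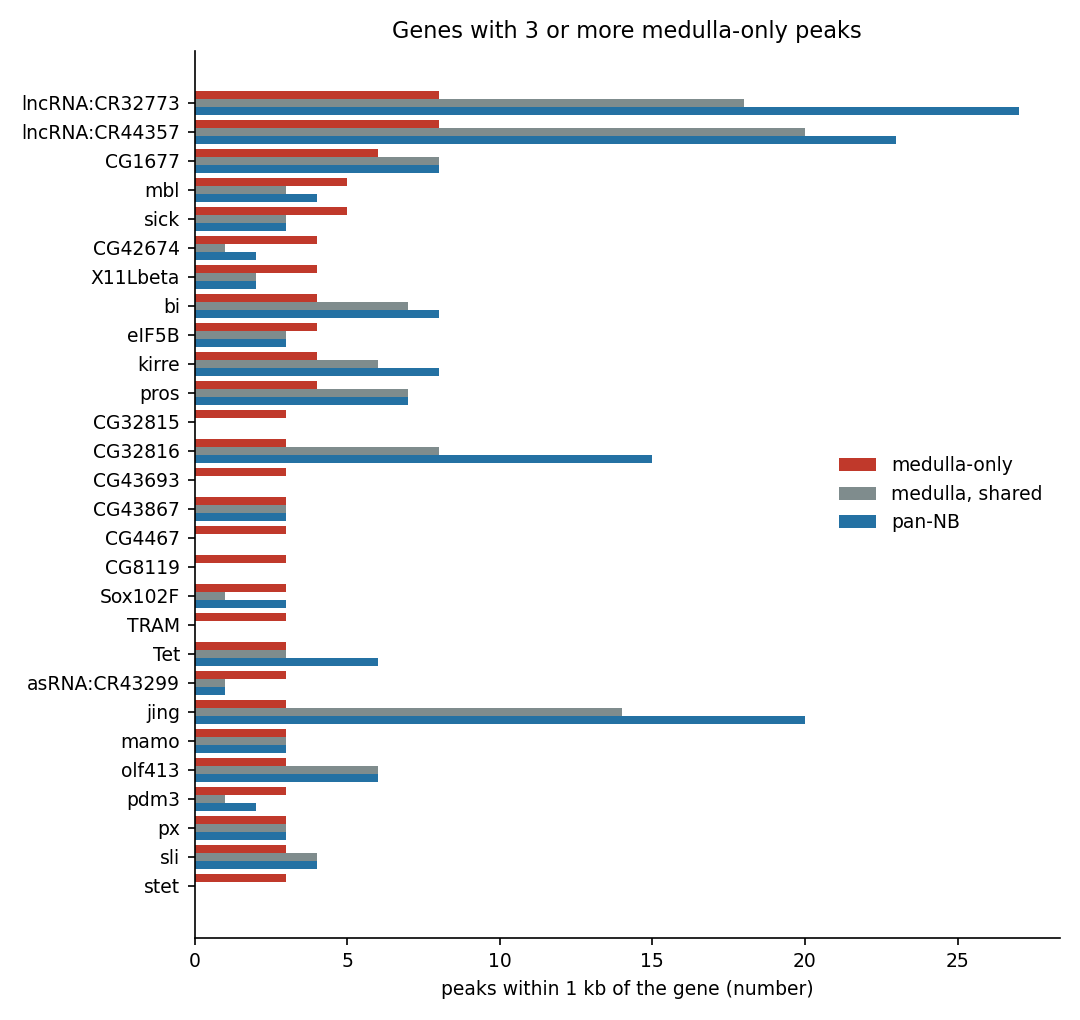
Number of peaks within 1 kb (x axis) at each of the 28 genes with 3 or more medulla-only peaks (y axis). Red bars count medulla-only, grey bars shared medulla NB and blue bars pan-NB peaks. At stet, CG43693, CG4467, CG32815, TRAM and CG8119 only the red bar is above 0.

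Temporal factor genes of medulla NBs were in both lists, and their medulla-only peaks stood beside shared ones. A medulla NB peak of either class lay within 1 kb of all 4 early, all 10 mid and all 3 late factors, and so did a pan-NB peak. Medulla-only peaks were at 1 of 4 early factors, at 4 of 10 mid factors and at 0 of 3 late ones, against 9.57% of protein-coding genes. The early factor was dmrt99B (3R:29695712-29697227, score 6.82). The mid factors were erm, ey, opa and scro. At ey, the Pax6 homologue whose enhancer the driver takes its name from, the peak scored 4.14. At the zinc finger gene opa it scored 3.91, and at the NK-2 homeobox gene scro 2.05. Of all 31 medulla NB peaks at the mid factors, 5 were medulla-only (16.1%), against 30.4% of the whole list.

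Genes of medulla neuron fate are transcription factors that mark the neurons made in successive windows or regions. They had medulla-only peaks at 11 of 28 (39.3%), against 9.57% of protein-coding genes. By peak, 18 of 61 were medulla-only (29.5%), close to the 30.4% of the whole list. At tup, an islet homologue, the peaks scored 1.08 and 6.25, and at zfh2, a homeodomain zinc finger gene, 6.09 and 4.81. At the related gene zfh1 they scored 5.73 and 1.07. The homeobox genes Rx, Lim3 and Vsx1 also had medulla-only peaks, with highest scores of 5.91, 4.77 and 3.40. Of these 11 genes only the forkhead gene fd59A was without a pan-NB peak. The list is made of long genes, with a median length of 20400.5 bp.

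Of the eye determination genes, 6 of 13 had a medulla-only peak (46.2%), against 9.57% of protein-coding genes. By peak, 6 of 22 were medulla-only (27.3%), against 30.4% of the whole list. At so, the Six-family partner of Eya, the only medulla NB peak was medulla-only (2R:7431006-7432692, score 2.24), 475 bp from the nearest of 4 pan-NB peaks. At toy, the second Pax6 homologue, it scored 1.35, and at dac 1.45. At tio, a zinc finger gene, the peak (2L:22023505-22024318, score 3.49) was the only one of either list within 1 kb. All but 1 of these 6 genes thus had a pan-NB peak too. Among genes of the neuroepithelium and of optic lobe position, 5 of 18 had a medulla-only peak (27.8%), the highest being that at l(1)sc (X:410428-411902, score 7.68), the proneural gene that marks the transition zone from neuroepithelium to NBs. The same peak also lay within 1 kb of CG32816.

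Genes of NB identity had medulla-only peaks at 5 of 21 (23.8%), against 9.57% of protein-coding genes. These were brat, lola, nab, klu and pros, all with a pan-NB peak as well. Of the 52 medulla NB peaks at this list, 8 were medulla-only (15.4%), against 30.4% of the whole list. At brat, which restrains growth in NB daughters, the medulla-only peak scored 1.70, and at nab, a transcriptional cofactor gene, 5.15. Notch pathway genes and targets had them at 5 of 32 (15.6%), and 5 of 40 peaks were medulla-only (12.5%). Besides neur these were Psn, the catalytic subunit of gamma-secretase, with a peak of score 3.33, and E(spl)m2-BFM, E(spl)m3-HLH and E(spl)m4-BFM. The last pair lay within 1 kb of the same peak (3R:26023413-26023976, score 3.86). Among the basic helix-loop-helix genes, 5 of 18 had a medulla-only peak (27.8%), and by peak 5 of 18 were medulla-only (27.8%). At da, the common partner of proneural proteins, the medulla-only peak was the only one (2L:10387034-10389701, score 3.20). The same peak also lay within 1 kb of Cdk1 and mRpS7, and it is counted again for Cdk1 below.

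Genes of the type II NB lineages had the highest share by gene, 7 of 11 (63.6%), against 9.57% of protein-coding genes. By peak, 9 of 43 were medulla-only (20.9%), below the 30.4% of the whole medulla NB list. The genes of this list were long, with a median of 20124 bp. All 7 genes (erm, pnt, Sp1, ham, osa, opa and dac) had pan-NB peaks, and erm, opa, dac, pnt and osa also belong to other lists. At ham, a PRDM-family zinc finger gene, the peak scored 5.33, and at the ETS factor gene pnt the peaks scored 3.60 and 3.62. Larval temporal genes had medulla-only peaks at 6 of 18 (Imp, Syp, mamo, EcR, Hr39 and br), and only Hr39, a nuclear receptor gene, lacked a pan-NB peak. At EcR, the ecdysone receptor gene, the peak scored 4.37.

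Signalling genes of the Hippo, JAK/STAT, EGF receptor and Wnt pathways had medulla-only peaks at 15 of 35 (42.9%), against 9.57% of protein-coding genes. By peak, 19 of 60 were medulla-only (31.7%), against 30.4% of the whole medulla NB list. Of the 15 genes hpo and ds had no pan-NB peak, 5.71% of the list against 6.14% of protein-coding genes. At fz2, a Wnt receptor gene, the peaks scored 7.11 and 3.43, at nkd, a Wnt antagonist, 2.20 and 5.75, and at Axn, of the beta-catenin destruction complex, 4.65. The genes of the ligands upd1, upd2, upd3, spi and wg had none. Genes of axon guidance and adhesion had medulla-only peaks at 14 of 33 (42.4%). By peak, 19 of 65 were medulla-only (29.2%). Here 5 genes (Dscam3, Dscam4, Toll-7, side and Eph) had no pan-NB peak, 15.2% of the list against 6.14% of protein-coding genes. The peaks at CadN, Ten-m and unc-5, which code for a cadherin, a teneurin and a netrin receptor, had highest scores of 6.04, 5.61 and 5.62. The genes of this list were long, with a median of 40368 bp.

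Genes of RNA-binding proteins had medulla-only peaks at 9 of 25 (36.0%), against 9.57% of protein-coding genes. By peak, 14 of 48 were medulla-only (29.2%), against 30.4% of the whole medulla NB list. Besides mbl, Syp and Imp these included shep (score 4.08), where no pan-NB peak lay within 1 kb, and Rbp6 (score 3.90), where the gene had a pan-NB peak but none lay closer than 57965 bp to the medulla-only one. Polycomb and Trithorax genes had medulla-only peaks at 8 of 25 (32.0%). By peak, 8 of 25 were medulla-only as well (32.0%). At E(z), Su(z)12 and Jarid2, all parts of or cofactors to the methyltransferase complex PRC2, there was no pan-NB peak. These were 12% of the list, against 6.14% of protein-coding genes. The PRC2 genes esc and escl of the same list had no medulla-only peak, and escl had a pan-NB peak. The peak at E(z), the catalytic subunit, scored 3.06 and that at Jarid2 scored 2.56. Cell cycle genes had medulla-only peaks at 7 of 34 (20.6%). By peak, 8 of 44 were medulla-only (18.2%). Of the 7 genes Cdk1 (scores 2.95 and 3.20) and aurA (score 3.01), both mitotic kinase genes, lacked a pan-NB peak. This was 5.88% of the list, against 6.14% of protein-coding genes. The mitotic kinase genes polo and aurB of the same list had a pan-NB peak. At CycE, the G1 cyclin gene, the peak scored 4.68 and stood with 6 shared ones.

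Among the remaining lists, medulla-only peaks were at 8 of 26 general neuronal genes (30.8%), 5 of 21 nuclear receptor and ecdysone genes (23.8%), 3 of 11 cell death genes (27.3%) and 2 of 18 growth and translation regulators (11.1%). They were at 9 of 92 ribosomal protein genes (9.78%), 2 of 21 segment polarity and gap genes (9.52%) and 2 of 19 miRNA genes (10.5%), which were mir-184 and mir-10. For other cells, they were at 1 of 17 glial genes (pnt, 5.88%) and at 1 of 22 genes of other tissues (Mef2, a muscle factor, 4.55%), beside 9.57% of protein-coding genes, and 8 of the 17 glial genes had a medulla NB peak of either class. Of the neuronal genes, 7.69% had a medulla-only and no pan-NB peak, against 6.14% of protein-coding genes. They were VGlut (score 3.07), the vesicular glutamate transporter gene, and nAChRbeta1 (score 3.81), a nicotinic receptor subunit gene. The driver is active in neurons too, whose part in these peaks was not tested.

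Hox genes and their cofactors had a medulla-only peak at 0 of 10, although 9 of the 10 had a pan-NB peak and 3 a shared medulla NB peak. All medulla NB peaks within 1 kb of these genes, 6 in number at Antp, abd-A and hth, were shared. The lists of Hox genes, late temporal factors, other tissues, glia and segment polarity and gap genes were below the 9.57% of protein-coding genes, and the other 21 lists were above it. Segment polarity and gap genes (9.52%) and ribosomal protein genes (9.78%) were close to it. The miRNA list (10.5%) holds no protein-coding genes, and the share over all miRNA genes was 4.23%. Most lists hold genes longer than the median of 2163 bp, and the part of gene length in these shares was not tested.

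**Figure D5:**
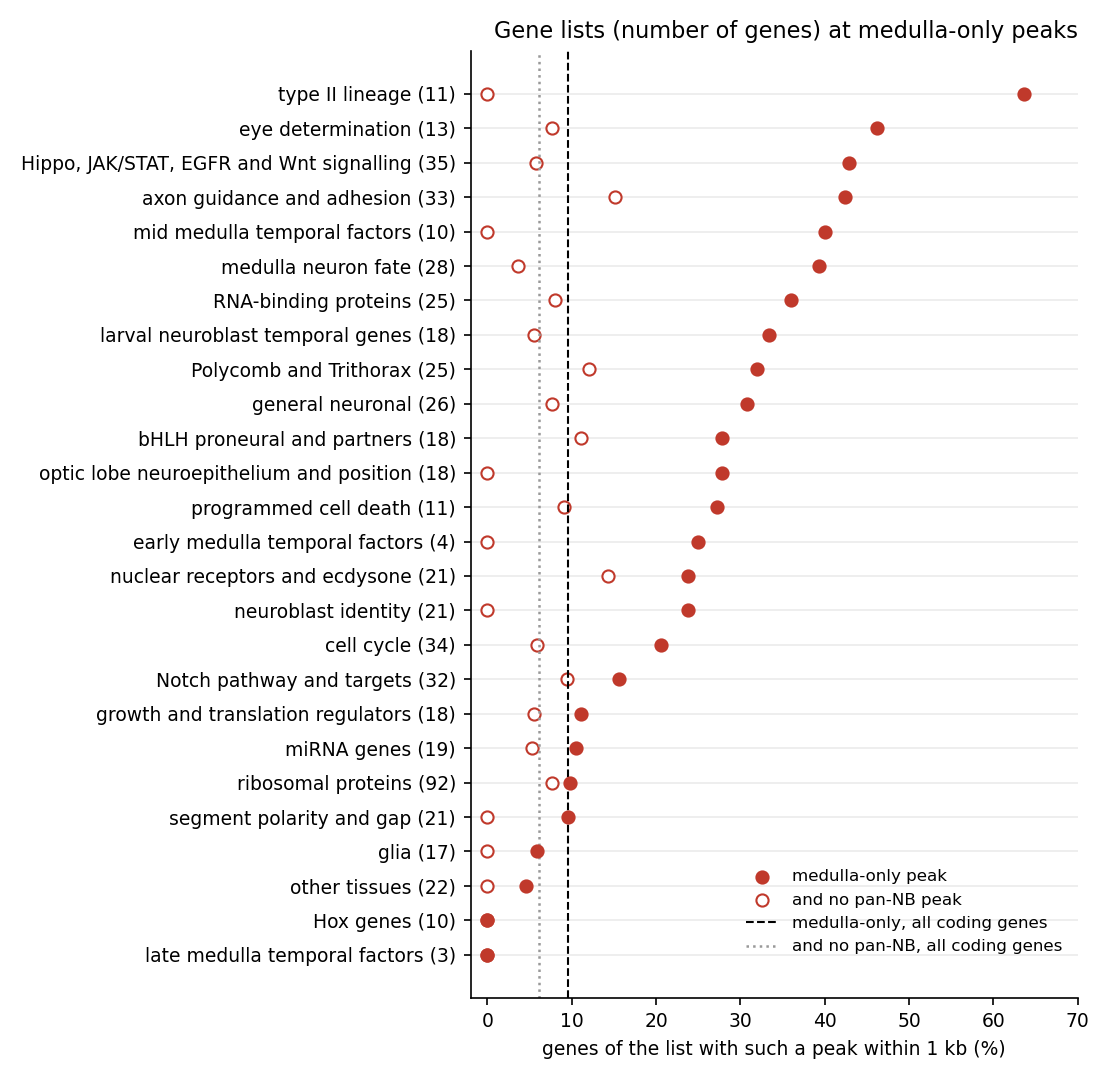
Share of genes in each of 26 lists (y axis, number of genes in parentheses) with a medulla-only peak within 1 kb (filled points, x axis in percent) and with such a peak but no pan-NB peak (open points). The dashed and dotted lines mark 9.57% and 6.14% of all protein-coding genes. Type II lineage genes are at 63.6%, Hox genes at 0.

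The medulla-only peaks farthest from the pan-NB list were of low to middle score. The farthest (3R:27653536-27657340, score 1.07) lay at tau, a microtubule-associated protein gene, RpS10a and Mlc1, 267627 bp from a pan-NB peak. Others lay at DIP-lambda (score 4.12, 256365 bp), which codes for a synaptic immunoglobulin protein, at Pzl (score 2.83, 226585 bp), of the Piezo channel family, and at side (score 3.30, 135513 bp), a guidance gene. Of the 10 farthest, the highest score was 4.87, at a peak (3R:4031510-4032282) whose nearest gene was CG42402. The false discovery rates of these 10 peaks lay between 0.000455 and 0.00835. The widest medulla-only peak (3R:21140201-21150653, 10453 bp, score 0.93) lay at meigo and SNF4Agamma and was among the lowest-ranked of the list.

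Medulla-only peaks in places followed one another along an arm. The next medulla NB peak along the arm was medulla-only for 371 of 1056 medulla-only peaks (35.1%) and for 684 of 2418 shared peaks (28.3%). The share of the whole list was 30.4%. The next peak lay a median of 5656 bp from a medulla-only peak, against 3609 bp from a shared one. In 84 places 3 or more consecutive medulla NB peaks were medulla-only, 298 peaks in all, and in 41 of these places no pan-NB peak stood between them. How many such places a random order of the peaks would give was not tested. The longest was of 9 peaks on 2L (2L:10263787-10429904), which included those at Cdk1, da and Klp31E, with scores between 1.11 and 3.90 and 6 pan-NB peaks in the spaces between. A row of 6 on X (X:864357-939011), at CG43867, CG32815 and TRAM, had no pan-NB peak within it.

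No gene lay within 1 kb of 129 medulla-only peaks (12.2%), against 15.1% of shared peaks. Their nearest gene was a median of 4196 bp away and at most 55639 bp, and 26 of them were 10 kb or more from any gene. Their median score was 3.46, against 2.74 for medulla-only peaks with a gene. The highest-scoring were 1230 bp from lncRNA:CR44955 (3R:10466209-10466779, score 10.09) and 8538 bp from RunxA (X:20632312-20633120, score 9.30), a Runt-family factor gene. Their false discovery rates were 0.00584 and 0.000282. Of all genes, 10 were the nearest to 2 peaks without a gene within 1 kb each: D, scro, disco, klg, scramb1, a tRNA gene and 4 lncRNA genes. D and scro are temporal factor genes of medulla NBs, but the peaks lay 16291 and 19068 bp from D and 4129 and 52676 bp from scro. Other temporal factor genes were nearest to a peak too. A peak of score 5.45 (2L:3822484-3822668) lay 3006 bp from slp1, and another of score 3.44 lay 10975 bp from B-H2.

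Around dpn itself, within 30 kb on each side, 8 medulla NB peaks were called, of which 2 were medulla-only. One (2R:8238531-8239509, score 7.45) lay in pnut, the neighbouring septin gene, 6200 bp from dpn and 993 bp from a pan-NB peak, and the other at CG14760 (2R:8256296-8257444, score 1.48). The 6 shared peaks scored between 8.91 and 15.22. The added dpn copy of the Dpn-GFP brains, absent from w1118 brains, cannot be told apart from binding in this region.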

How the data were processed

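The authors aligned DamID reads with damidseq_pipeline at default settings, averaged the 2 replicates of each comparison, and called peaks with find_peaks (min-quant 0.8, FDR below 0.01). The methods describe the calling as done per replicate, whereas the deposited lists are named as averages, with 1 list per comparison. How the averaged lists were called is not stated. Their versions, and the genome build, are not stated in any source used here. The deposited lists give each peak's position, a score without stated scale, not comparable between lists, and an FDR, which is a q-value set by the authors' caller. On 3R, peaks reach base 32078821, beyond the end of that arm in the preceding assembly release. Here 2 lists were intersected (1 bp or more shared) with numpy 2.4.6 and pandas 2.3.3 in Python 3.11.15, on 6 arms. The 7 pan-NB peaks on Y were left out. Gene spans came from a RefSeq table of Release 6, without strand or exons, with 1 kb as the distance. Overlap and distance functions were checked on simulated intervals.

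The members and the 26 gene lists (523 genes) were chosen with earlier results of these data known. Of their names 10 were matched through a synonym and 1 was not matched. Genes were named where they lay at the 20 highest-scoring medulla-only peaks, had the most such peaks, had the highest-scoring peak without a pan-NB peak, led their list (up to 6 each), or lay in the longest rows or at the farthest, widest or nearest peaks. Other list members named for lacking a pan-NB peak, and the dpn region, were chosen after their values were seen. Alternatives changed the overlap, the distances, the thresholds and the gene set. No sequence was analysed here.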

Additional observations from a re-analysis of the deposited data

How the results depend on the processing

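The values depended most on how strictly a peak was required to be apart from the pan-NB list and on the score. Requiring that no pan-NB peak lay within 5 kb left 534 medulla-only peaks of median width 1571.5 bp, 835 genes within 1 kb and 44 genes of the lists, against 119 as reported. With an FDR below 0.001 in both lists there were 673 medulla-only peaks, 986 genes and 672 genes without a pan-NB peak. With the higher-scoring 50% of the medulla NB list there were 265 peaks of median width 1182 bp, 80.4% of them with a gene within 1 kb and 64.2% with the midpoint inside one, with 295 genes, 122 of them without a pan-NB peak, and 42 genes of the lists. With the higher-scoring 50% of each list there were 482 peaks, 1200 bp, 82.0%, 66.2%, 581, 380 and 63 in the same order. The median distance to a pan-NB peak was 2068.5 bp when peaks under 50% covered were counted, 6396.5, 7290.5 and 14136 bp when none was allowed within 500 bp, 1 kb and 5 kb, 5902 bp with the FDR, and 2519 and 9699 bp with the 50% of the medulla NB list and of each list. A gene lay within 0 bp of 84.7% and within 5 kb of 94.7% of the peaks, which gave 2826 genes at 5 kb, and with protein-coding genes alone the shares were 84.2% within 1 kb and 69.2% for the midpoint. Of the counts of single lists, 186 stayed within 1.5 times the reported count and 100 did not. Cutting the pan-NB list as well left more medulla-only peaks (482) than cutting the medulla NB list alone (265). A stricter setting thus did not always leave fewer of them. Why these values moved was not tested. Leaving out a replicate could not be run, and depth limits could not be given, since only lists of averaged profiles were used. No paired analysis was possible because each list comes from averaged replicates and no test was made.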
